A study of Mus musculus with 39 samples.

Results

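Akp3, Alpi and Alpl, the alkaline phosphatase genes with a known place in gut biology, were followed through 3 regions of the mouse gut in 2 inbred strains. They were chosen by name and are 3 of the 34600 entries of the expression tables, and all were listed in every library. Total RNA depleted of ribosomal RNA was sequenced from 13 mice, in a series on how inherited differences between mice bear on gut bacteria. Each of 6 BALB/cJ and 7 C57BL/6J mice, both common inbred laboratory strains, gave 1 library from tissue labelled duodenum/jejunum, 1 from ileum and 1 from colon, 39 libraries in all. The labels name no added allele, agent, sex, age or batch, so strain could not be set against any of these. Replicates were separate mice. Levels are in TPM (transcript abundance relative to the library total), which are scaled for transcript length, so that the level of one gene can be set beside that of another. In whole tissue, fewer cells of a type and less RNA per cell cannot be told apart.

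Alkaline phosphatases remove phosphate groups from many substrates and sit on the outer face of the cell membrane, held by a glycosylphosphatidylinositol (GPI) anchor. The intestinal enzymes are carried on the brush border of enterocytes, the absorbing cells of the gut, where they dephosphorylate bacterial lipopolysaccharide and extracellular nucleotides and are linked to fat absorption. In the mouse, Akp3 encodes the enzyme known from the duodenum, and Alpi, also called Akp6, encodes an enzyme known from the whole length of the gut. Alpl encodes the tissue-nonspecific enzyme of bone, liver, kidney and neutrophils, which splits pyrophosphate and the phosphorylated form of vitamin B6. Alppl2, a further relative known from the early embryo, was not among the 3 genes and is given beside them for comparison.

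The genes known from the gut lie side by side, whereas Alpl lies on another chromosome. On the GRCm38 build, Akp3 lies at chr1:87124973-87127912 on the plus strand and Alpi at chr1:87098002-87101606 on the minus strand, so they are transcribed away from each other across a gap of 23366 bases. Alppl2 follows at chr1:87086694-87089928 on the minus strand, 8073 bases from Alpi. Alpl spans chr4:137741733-137796384 on the minus strand. All 4 are annotated as protein-coding. The coding sequences of Akp3 and Alpi were identical at 82.6% of aligned bases, against 66.9% for Akp3 and Alpl and 67.6% for Alpi and Alpl. Of the 31-base words in the annotated Akp3 transcripts, 3.68% also occurred in Alpi transcripts and 0.0% in Alpl transcripts. Some reads may therefore be compatible with both Akp3 and Alpi, and their levels carry that uncertainty. The share of such reads was not measured.

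The 150 bases before the RefSeq start sites of the 3 neighbouring genes (GRCm38.p6, each read 5′ to 3′ on the strand of its gene) are shown because Akp3 and Alpi share letters there although their levels along the gut differ. Capitals mark CAAAGTC, a core of sites known for HNF4 factors, and GGGTGGGG, the reverse complement of the CACCC-box letters CCCCACCC. The stretches are chr1:87124804-87124953 on the plus strand for Akp3, chr1:87101607-87101756 on the minus strand for Alpi and chr1:87089929-87090078 on the minus strand for Alppl2.
Akp3: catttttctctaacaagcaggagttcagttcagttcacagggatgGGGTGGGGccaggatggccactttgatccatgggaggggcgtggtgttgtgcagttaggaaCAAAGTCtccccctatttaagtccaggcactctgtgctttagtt
Alpi: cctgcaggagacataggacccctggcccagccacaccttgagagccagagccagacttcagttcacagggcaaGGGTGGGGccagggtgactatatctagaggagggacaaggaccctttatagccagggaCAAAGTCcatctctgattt
Alppl2: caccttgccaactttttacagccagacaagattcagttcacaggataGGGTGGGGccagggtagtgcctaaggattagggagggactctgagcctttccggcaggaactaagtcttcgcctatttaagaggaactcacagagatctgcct

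Windows of 250 bases before to 50 after each RefSeq start were searched on both strands for 5 strings chosen after the windows had been read. CAAAGTC lay before the start sites of Akp3 and Alpi, with 37 bases between its end and the start of Akp3 and 12 for Alpi. It was also in 1 of the 2 Alpl windows but not in the other, nor in Alppl2. CCCCACCC lay on the opposite strand in Akp3, Alpi, Alppl2 and the Alpl window that lacked CAAAGTC. Among all 32851 promoter windows, 4.44% held CAAAGTC and 9.99% held CCCCACCC. Another string, typical of sites for GATA factors and spelled AGATAA, was held by 11.2% of all windows and by none of these. TTTAT (40.0% of windows) and the overlapping TATAAA (13.6%) were in Alpi and in the same Alpl window as CCCCACCC. The longest run shared by the Akp3 and Alpi windows was ttcagttcacaggg, 14 bases. These matches describe letters and not bound factors.

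The tissue labels were checked against position markers before the genes were compared. A position score was taken as the mean log2(TPM + 1) of 6 proximal markers (Pdx1, Onecut2, Gata4, Tmprss15, Cybrd1 and Fabp1) minus that of 5 ileal markers of bile acid handling (Fabp6, Slc10a2, Slc51a, Slc51b and Fgf15). It lay between 0.04 and 2.87 in duodenum/jejunum and between -6.60 and -4.87 in ileum, except in both small intestinal libraries of C57BL/6J mouse 2. The library labelled ileum of that mouse scored 1.04, with 22.1 TPM of Fabp6, the ileal bile acid binding protein, against 3766 to 11144 TPM in the other ileum libraries. Its library labelled duodenum/jejunum scored -2.31, with 6111 TPM of Fabp6 beside 574 TPM of the gastric gene Gkn3 and 2007 TPM of the gland gene Tff2. That library also held proximal markers, with 39.2 TPM of Tmprss15, the C57BL/6J median, and with 9.16 TPM of Onecut2 and 3207 TPM of Fabp1, each the lowest among C57BL/6J duodenum/jejunum libraries. The ileum library thus goes against its label, and the duodenum/jejunum library holds ileal markers beside those of its label. Whether tissue pieces were mixed was not tested. Differences that use these libraries are also given without this mouse, or the change in their calls is stated.

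Akp3 was a gene of the upper gut in both strains. In duodenum/jejunum it had 53.8, 693 and 1686 TPM in BALB/cJ mice (lowest, median and highest of 6) and 35.7, 664 and 1249 TPM in C57BL/6J mice (of 7). In ileum it had 1.96, 3.27 and 21.98 TPM in BALB/cJ mice and 1.30, 2.49 and 97.8 TPM in C57BL/6J mice. In colon the BALB/cJ libraries had 0.332, 0.633 and 3.09 TPM and the C57BL/6J libraries 0.258, 0.376 and 0.695 TPM. Duodenum/jejunum and ileum did not overlap in BALB/cJ, and they overlapped in C57BL/6J only through the ileum library of mouse 2, which had the 97.8 TPM; without it the C57BL/6J ileum libraries ended at 2.62 TPM. By mean TPM in duodenum/jejunum, Akp3 ranked 152nd among 15306 genes in BALB/cJ and 256th in C57BL/6J.

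The difference between the upper and lower small intestine was called in both strains. Over each mouse's own ileum, Akp3 in duodenum/jejunum was higher in 6 of 6 BALB/cJ mice, by 17.4 to 489 times with a median of 246. It was higher in 7 of 7 C57BL/6J mice, by 10.6 to 501 times with a median of 108, and the 10.6 belonged to mouse 2, without which the median was 195. The means were 868 ± 667 TPM in duodenum/jejunum and 6.07 ± 7.82 TPM in ileum for BALB/cJ (SD, n = 6 each), a ratio of 143. For C57BL/6J they were 587 ± 464 TPM in duodenum/jejunum and 15.9 ± 36.1 TPM in ileum (SD, n = 7 each), a ratio of 36.9. Without mouse 2 they were 511 ± 458 TPM in duodenum/jejunum and 2.23 ± 0.505 TPM in ileum, a ratio of 229. On the log2(TPM + 1) scale, duodenum/jejunum exceeded ileum by 6.76 ± 0.78 in BALB/cJ (± standard error, limma adjusted p = 4.19e-08) and by 6.12 ± 0.72 in C57BL/6J (adjusted p = 1.01e-06, or 6.57 ± 0.65 without mouse 2). These were the 4th highest such difference in BALB/cJ and the 3rd highest in C57BL/6J among 17126 genes. Of all genes tested, 43.1% were called between these tissues in BALB/cJ (7.63% higher and 35.5% lower in duodenum/jejunum) and 11.3% in C57BL/6J (5.79% higher and 5.54% lower).

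Against colon the excess of Akp3 in duodenum/jejunum was 8.26 ± 0.78 in BALB/cJ (limma adjusted p = 1.44e-11) and 7.99 ± 0.72 in C57BL/6J (adjusted p = 4.27e-12, or 7.78 ± 0.65 without mouse 2). Akp3 entered this fit through its small intestinal libraries, since too few colon libraries reached the minimum of 1 TPM, so these 2 calls follow in part from the choice of genes tested. Of all genes, 63.5% were called in BALB/cJ (14.5% higher in duodenum/jejunum) and 64.6% in C57BL/6J (15.3% higher). Between ileum and colon the levels were low and the outcome depended on the fit. Ileum exceeded colon by 1.49 ± 0.78 in BALB/cJ (limma adjusted p = 0.118) and by 1.87 ± 0.72 in C57BL/6J (adjusted p = 0.0238, and 1.21 ± 0.65 with adjusted p = 0.111 without mouse 2). Of all genes, 46.1% were called in BALB/cJ and 61.7% in C57BL/6J. That fit gives every group 1 spread, which the wide duodenum/jejunum values of Akp3 enlarge. A fit of these 2 tissues alone with mice paired, added after the data had been seen, gave 1.49 ± 0.20 in BALB/cJ (limma adjusted p = 0.000388) and 1.21 ± 0.14 in C57BL/6J without mouse 2 (adjusted p = 9.3e-05). In both fits Akp3 passed the minimum level through libraries other than colon. The calls between ileum and colon thus also follow in part from the choice of genes tested. Each mouse had more Akp3 in ileum than in its own colon, by 3.11 to 10.4 times in BALB/cJ and by 2.32 to 141 times in C57BL/6J, the 141 being mouse 2. The part of sequence shared with Alpi in this low-level step was not tested.

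**Figure D1:**
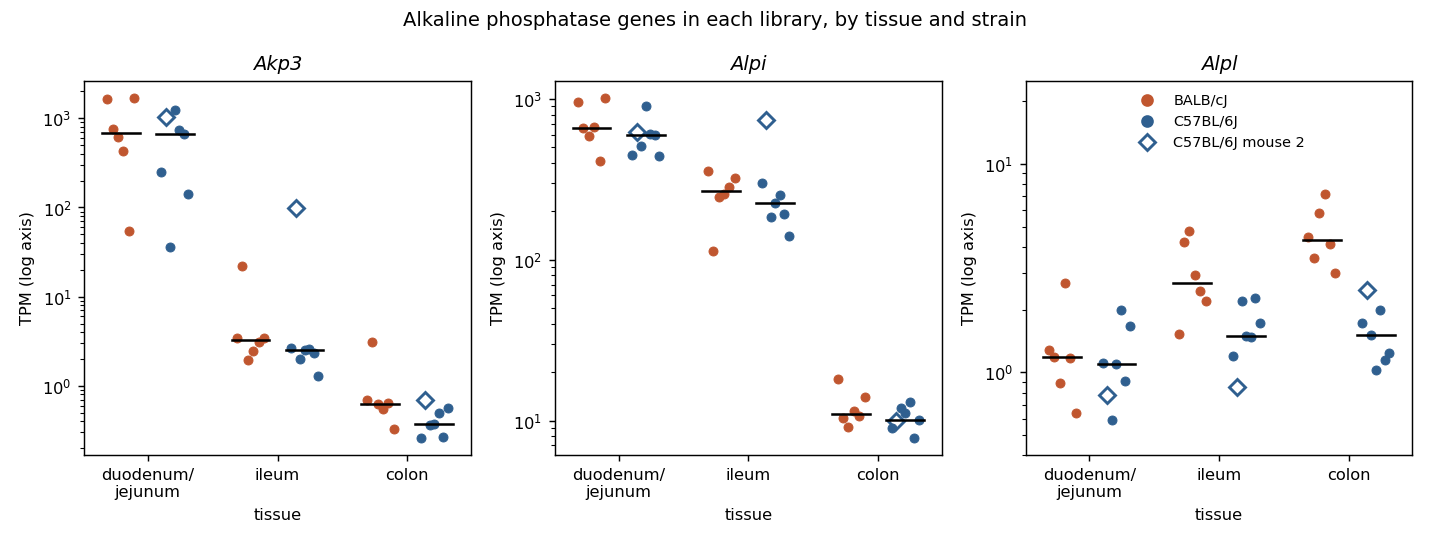
TPM on a log axis of Akp3, Alpi and Alpl in each library of duodenum/jejunum, ileum and colon, with BALB/cJ left of C57BL/6J, a line at each group median and open diamonds for C57BL/6J mouse 2. Akp3 steps down sharply after duodenum/jejunum, Alpi less so until the colon, and Alpl in BALB/cJ is highest in colon.

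Alpi was expressed along the whole small intestine and stayed measurable in colon. In duodenum/jejunum it had 412, 664 and 1015 TPM in BALB/cJ mice (lowest, median and highest) and 445, 597 and 903 TPM in C57BL/6J mice. In ileum it had 113, 270 and 356 TPM in BALB/cJ mice and 141, 226 and 738 TPM in C57BL/6J mice, and again the highest value was mouse 2, with the other C57BL/6J mice at 300 TPM or less. In colon it had 9.13, 11.04 and 18.2 TPM in BALB/cJ mice and 7.75, 10.1 and 12.96 TPM in C57BL/6J mice. Ileum and colon did not overlap in either strain, and duodenum/jejunum and ileum overlapped only through C57BL/6J mouse 2.

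The larger step of Alpi lay between ileum and colon. Mean Alpi was 2.73 times higher in duodenum/jejunum than in ileum in BALB/cJ and 2.03 times higher in C57BL/6J (2.71 times without mouse 2). In ileum it was 21.4 times its colon mean in BALB/cJ and 27.9 times in C57BL/6J (20.6 times without mouse 2). The log2 difference between duodenum/jejunum and ileum was 1.46 ± 0.27 in BALB/cJ (limma adjusted p = 6.41e-05) and 1.19 ± 0.25 in C57BL/6J (adjusted p = 0.00119, or 1.43 ± 0.23 without mouse 2). In the paired fit of these 2 tissues the C57BL/6J call was lost with mouse 2 (1.19, adjusted p = 0.0664); its own ratio was 0.848, whereas the other 6 C57BL/6J mice had ratios above 1. Ileum exceeded colon by 4.26 ± 0.27 in BALB/cJ (limma adjusted p = 5.36e-16) and 4.48 ± 0.25 in C57BL/6J (adjusted p = 8.54e-18, or 4.22 ± 0.23 without mouse 2). Among 17126 genes these ranked 96th and 99th in their strains.

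Added together, Akp3 and Alpi held 1585 ± 890 TPM in BALB/cJ duodenum/jejunum (SD, n = 6) and 1178 ± 606 TPM in C57BL/6J (SD, n = 7), or 1097 ± 620 TPM without mouse 2. In ileum the sum was 269 ± 77.4 TPM in BALB/cJ and 307 ± 239 TPM in C57BL/6J (219 ± 56.6 TPM without mouse 2), and in colon 13.3 ± 3.19 TPM in BALB/cJ and 10.8 ± 1.82 TPM in C57BL/6J. The makeup of the sum changed along the gut: Akp3 was 11.5, 52.5 and 63.5% of it in BALB/cJ duodenum/jejunum (lowest, median and highest) and 6.51, 52.6 and 62.5% in C57BL/6J, where the median was 44.2% without mouse 2. In ileum the median share was 1.01% in BALB/cJ and 1.08% in C57BL/6J, with BALB/cJ mouse 2 apart at 16.2% and C57BL/6J mouse 2 at 11.7%. In colon, at much lower levels, the median share was 5.11% in BALB/cJ, where mouse 2 had the highest at 23.04%, and 3.29% in C57BL/6J. Below the upper gut Alpi transcripts thus made up most of the pair in every library.

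Among duodenum/jejunum libraries, Akp3 varied far more than Alpi. The SD of log2(TPM + 1) over mice was 1.82 for Akp3 in BALB/cJ and 1.84 in C57BL/6J, larger than for 99.4% of genes in BALB/cJ and 99.5% in C57BL/6J. The median SD of all genes was 0.26 in BALB/cJ and 0.24 in C57BL/6J. For Alpi it was 0.48 in BALB/cJ and 0.35 in C57BL/6J. The BALB/cJ libraries, mouse 1 to mouse 6, had 1659, 764, 621, 425, 53.8 and 1686 TPM of Akp3. The C57BL/6J libraries, mouse 1 to mouse 7, had 247, 1041, 35.7, 1249, 731, 664 and 141 TPM. BALB/cJ mouse 5 and C57BL/6J mouse 3 were the lowest of their strains, and also had the least RNA of gastric and Brunner gland genes, which come from the start of the duodenum and the stomach. The 7 gland genes (Gkn1, Gkn2, Gkn3, Tff1, Tff2, Muc5ac and Muc6) summed to 2.003 TPM in BALB/cJ mouse 5 and 11.004 TPM in C57BL/6J mouse 3, against 235 to 4413 TPM in the other 11 libraries. C57BL/6J mouse 7 went the other way, with low Akp3 at 141 TPM and 3232 TPM of the gland genes. The part of the sampled position in the Akp3 spread was not tested.

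Akp3 followed the position score among duodenum/jejunum libraries once mouse 2 was left out. In BALB/cJ, Pearson's r of Akp3 with the score was 0.95 (exact permutation p = 0.00972, adjusted over 12 relations p = 0.0292), Spearman's rho was 0.94 (exact permutation p = 0.0167, adjusted p = 0.05), and r was 0.96 without the 2 libraries farthest from the median score. In C57BL/6J, r was 0.06 with all 7 mice (exact permutation p = 0.89, adjusted p = 0.892) and rho 0.39 (exact permutation p = 0.396). Without mouse 2, r was 0.92 (exact permutation p = 0.00556, adjusted p = 0.0222) and rho 0.89, and r was 0.97 without the 2 farthest of these. For Alpi, r with the score was 0.91 in BALB/cJ (exact permutation p = 0.00278, adjusted p = 0.0167) and 0.23 in C57BL/6J (exact permutation p = 0.582), or 0.82 without mouse 2 (exact permutation p = 0.0361, adjusted p = 0.0722). Gata4, Tmprss15 and the other proximal markers share libraries with Akp3, so these relations describe libraries and not regulation. No relation with the score was called in ileum.

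Akp3 and Alpi also moved together between mice in places. In BALB/cJ duodenum/jejunum, r was 0.93 (exact permutation p = 0.00972, adjusted p = 0.0292) and rho 0.83 (exact permutation p = 0.0583, adjusted p = 0.14). In C57BL/6J duodenum/jejunum, r was 0.70 (exact permutation p = 0.0758, adjusted p = 0.13) and rho 0.89 (exact permutation p = 0.0123, adjusted p = 0.05). In C57BL/6J ileum, r was 0.93 (exact permutation p = 0.000198, adjusted p = 0.00238) and stayed at 0.90 without mouse 2 (exact permutation p = 0.00139, adjusted p = 0.0167). Without mouse 2, Akp3 there was only 1.30 to 2.62 TPM, a nearly fixed 0.868 to 1.22% of its sum with Alpi. Whether sequence shared with Alpi entered these Akp3 values was not tested. In BALB/cJ ileum, r was -0.85 (exact permutation p = 0.167) and turned to 0.94 over the 4 libraries left without the 2 farthest, so no direction can be given there. The BALB/cJ ileum value rests on mouse 2, which had the highest Akp3 at 21.98 TPM and the lowest Alpi at 113 TPM. In that library the 7 enterocyte markers summed to 6015 TPM, against 16783 to 29323 TPM in the other BALB/cJ ileum libraries, and the 6 B cell markers to 173 TPM, against 84.3 to 108 TPM. Macrophage and dendritic cell markers summed to 646 TPM, against 344 to 373 TPM, and fibroblast markers to 1640 TPM, against 924 to 1112 TPM. Adipocyte markers, at 102 TPM, lay within the 17.5 to 324 TPM of the others. The part of these cells in the Akp3 and Alpi values of that library was not tested.

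**Figure D2:**
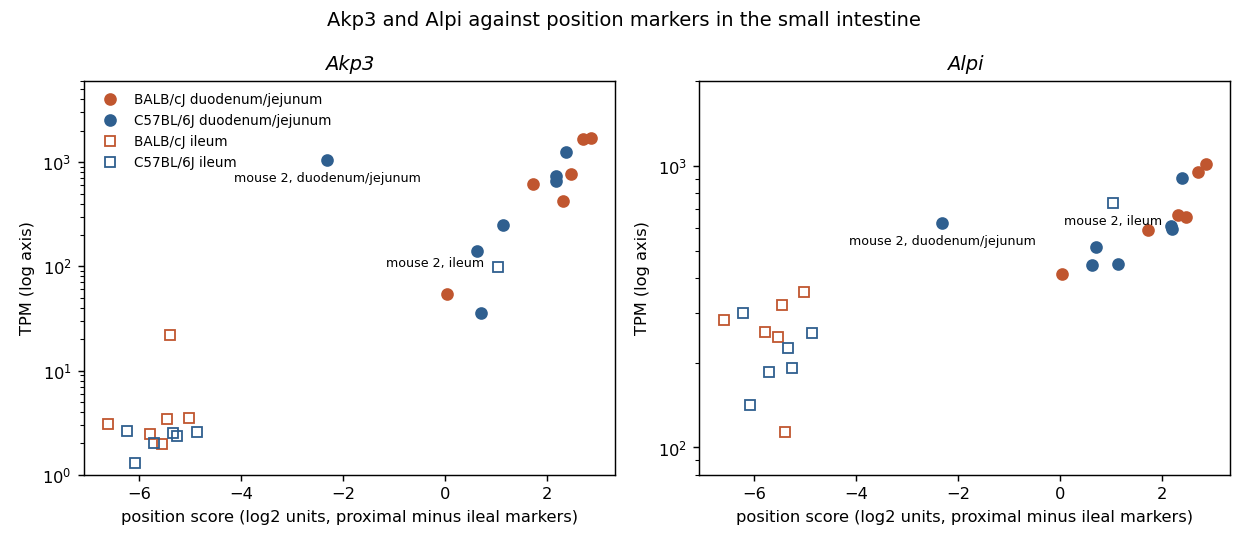
TPM of Akp3 and of Alpi on log axes against the position score of the same library in log2 units, with filled circles for duodenum/jejunum and open squares for ileum. In duodenum/jejunum both genes are higher where the score is higher, except for C57BL/6J mouse 2 at -2.31, and the ileum library of that mouse lies at 1.04, among the duodenum/jejunum libraries.

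No strain difference was called for Akp3 or Alpi in any tissue where they were tested. In duodenum/jejunum, where 9.5% of genes were called, BALB/cJ minus C57BL/6J was 0.63 ± 0.89 log2 units for Akp3 (95% interval -1.26 to 2.52, limma adjusted p = 0.767) and 0.25 ± 0.21 for Alpi (-0.19 to 0.70, adjusted p = 0.56). Without C57BL/6J mouse 2 these were 0.88 ± 0.92 for Akp3 and 0.27 ± 0.22 for Alpi, also not called. In ileum, where 20.4% of genes were called, it was -0.01 ± 0.78 for Akp3 (-1.68 to 1.66, limma adjusted p = 0.992), or 0.69 ± 0.40 without C57BL/6J mouse 2 (-0.17 to 1.56, adjusted p = 0.22). For Alpi in ileum it was -0.02 ± 0.34 (-0.76 to 0.72, limma adjusted p = 0.972), or 0.24 ± 0.25 without that mouse (adjusted p = 0.512). In colon, where 25.3% of genes were called, Alpi differed by 0.20 ± 0.15 (-0.11 to 0.51, limma adjusted p = 0.345), and Akp3 was too low to be tested. The intervals for Akp3 still allow a difference of several fold in duodenum/jejunum, and those for Alpi in duodenum/jejunum and colon stay within 1 log2 unit either way.

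**Figure D3:**
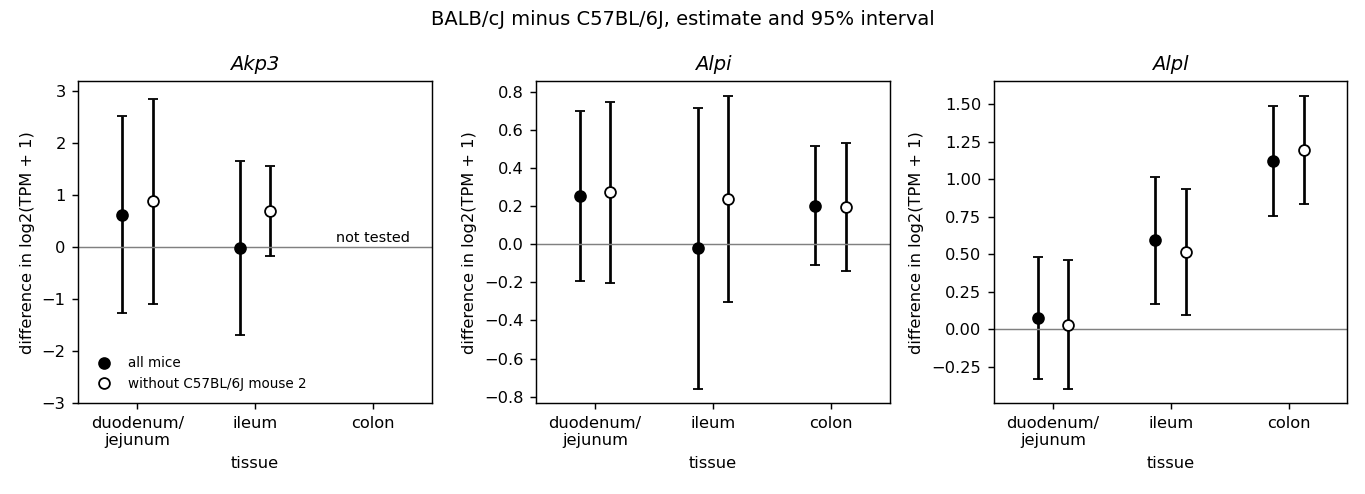
BALB/cJ minus C57BL/6J difference in log2(TPM + 1) with its 95% interval for each gene and tissue, with filled points for all mice and open points without C57BL/6J mouse 2. The Alpl interval lies above 0 in colon and ileum, at 1.12 and 0.59, while every Akp3 and Alpi interval crosses 0.

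Alpl was the gene that differed between strains, and it was low throughout. In colon it had 3.00, 4.31 and 7.18 TPM in BALB/cJ mice (lowest, median and highest) and 1.02, 1.504 and 2.47 TPM in C57BL/6J mice. Every BALB/cJ colon lay above every C57BL/6J colon, the nearest of which was mouse 2. Of all genes in colon, 11.5% separated the strains without overlap, 6.49% with BALB/cJ higher. The means were 4.69 ± 1.55 TPM in BALB/cJ (SD, n = 6) and 1.58 ± 0.516 TPM in C57BL/6J (SD, n = 7), a ratio of 2.96. The log2 difference was 1.12 ± 0.17 (95% interval 0.75 to 1.49, limma adjusted p = 0.000237), and 1.20 ± 0.17 without C57BL/6J mouse 2 (adjusted p = 0.000158).

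In ileum Alpl had 1.53, 2.69 and 4.79 TPM in BALB/cJ mice and 0.853, 1.498 and 2.28 TPM in C57BL/6J mice, so the strains overlapped. The difference was 0.59 ± 0.20 (95% interval 0.17 to 1.02, limma adjusted p = 0.0474). This call did not hold up: without C57BL/6J mouse 2, which had the 0.853 TPM, it was 0.52 ± 0.19 (adjusted p = 0.0689), and it was lost when 10 of the 13 mice were left out one at a time. The median of all genes was also shifted by 0.17 toward BALB/cJ in ileum, and with libraries rescaled to remove that shift Alpl differed by 0.47 (adjusted p = 0.129). In duodenum/jejunum Alpl had 0.637, 1.18 and 2.67 TPM in BALB/cJ mice and 0.592, 1.10 and 2.00 TPM in C57BL/6J mice, nearly the same range. The difference there was 0.07 ± 0.19 (-0.33 to 0.48, limma adjusted p = 0.886), and 0.0325 ± 0.20 without C57BL/6J mouse 2.

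The strain difference of Alpl itself differed between the ends of the gut. The difference in duodenum/jejunum minus that in colon was -1.05 ± 0.27 (95% interval -1.60 to -0.49, limma adjusted p = 0.0139), where 5.59% of genes were called, and -1.16 ± 0.27 without C57BL/6J mouse 2 (adjusted p = 0.00508). In the same contrast 3 of 6 B cell, 4 of 5 plasma cell, 3 of 6 T cell, 4 of 6 macrophage and dendritic cell, 2 of 4 Paneth cell and 1 of 4 adipocyte markers were also lower, 1 of 7 enterocyte markers was higher, and their part in the Alpl contrast was not tested. The Alpl call was lost, at the threshold, without C57BL/6J mouse 7 (-0.96, limma adjusted p = 0.05). The steps between duodenum/jejunum and ileum (-0.52 ± 0.27, limma adjusted p = 0.237) and between ileum and colon (-0.53 ± 0.27, adjusted p = 0.292) were not called, beside 3.92% and 4.08% of all genes. For Akp3 and Alpi none of the 6 such contrasts was called, with limma adjusted p between 0.687 and 0.97.

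Within BALB/cJ, Alpl was higher toward the colon. Colon was above duodenum/jejunum in 6 of 6 BALB/cJ mice and in 4 of 7 C57BL/6J mice. Duodenum/jejunum minus colon was -1.31 ± 0.20 in BALB/cJ (limma adjusted p = 5.15e-07) and -0.26 ± 0.18 in C57BL/6J (adjusted p = 0.212), and the contrast of these is the test given above. Duodenum/jejunum minus ileum was -0.79 ± 0.20 in BALB/cJ (limma adjusted p = 0.0017) and -0.27 ± 0.18 in C57BL/6J (adjusted p = 0.413). Ileum minus colon was -0.52 ± 0.20 in BALB/cJ (limma adjusted p = 0.0323) and 0.01 ± 0.18 in C57BL/6J (adjusted p = 0.968). Calls in this direction were common in BALB/cJ. There 49.0% of all genes were called lower in duodenum/jejunum than in colon and 35.5% lower than in ileum. The medians of all genes for these steps were -0.29 and -0.20. Between ileum and colon 46.1% of all genes were called in BALB/cJ, with a median of -0.11. The BALB/cJ step between ileum and colon was lost without BALB/cJ mouse 1, 4 or 5 (adjusted p = 0.145, 0.104 and 0.0731). Alpl thus ran opposite to Akp3 and Alpi in BALB/cJ, and no tissue step was called in C57BL/6J, with or without mouse 2.

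**Figure D4:**
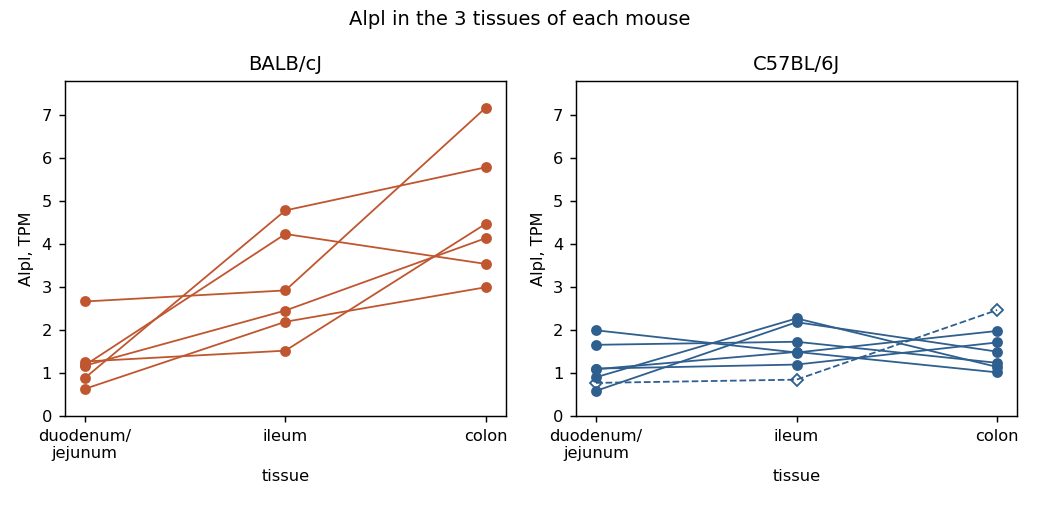
TPM of Alpl in duodenum/jejunum, ileum and colon of each mouse, with a line per mouse, BALB/cJ in the left panel and C57BL/6J in the right, and a dashed line for C57BL/6J mouse 2. BALB/cJ mice end in colon between 3.00 and 7.18 TPM, and C57BL/6J mice between 1.02 and 2.47 TPM.

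Markers of several cell types other than enterocytes were higher with Alpl in BALB/cJ colon, and some were lower. Of all colon genes, 14.5% were called higher and 10.8% lower in BALB/cJ. All 6 B cell markers were called higher in BALB/cJ colon, as were 5 of 6 macrophage and dendritic cell markers, 5 of 6 fibroblast markers and all 4 adipocyte markers tested. So were 4 of 6 T cell, 3 of 5 plasma cell, 3 of 6 goblet cell and 2 of 6 endothelial markers. Going the other way, 2 of 6 smooth muscle markers (Acta2 at -0.31 and Myh11 at -0.24) and 3 of 7 markers of enteric neurons and glia (Sox10 at -0.44, Uchl1 at -0.61 and Elavl4 at -0.49) were lower in BALB/cJ. Of 4 Paneth cell markers 3 were higher and 1, Ang4, was lower (-1.29). Their sums per library were 38.01 to 58.8 TPM in BALB/cJ and 11.8 to 22.5 TPM in C57BL/6J for B cells, and 278 to 515 TPM in BALB/cJ and 135 to 258 TPM in C57BL/6J for macrophages and dendritic cells. For fibroblasts the sums were 1381 to 2376 TPM in BALB/cJ and 993 to 1659 TPM in C57BL/6J, and for adipocytes 94.5 to 254 TPM in BALB/cJ and 31.1 to 98.2 TPM in C57BL/6J. Neutrophils are a known source of Alpl, and 2 of their 4 tested markers were higher in BALB/cJ colon. These were Ly6g, with 125 TPM in BALB/cJ and 77.4 TPM in C57BL/6J, and the receptor gene Csf3r, with 1.29 TPM in BALB/cJ and 0.70 TPM in C57BL/6J. The other 2 tested were not called, among them Cxcr2, a chemokine receptor, with 2.33 TPM in BALB/cJ and 2.56 TPM in C57BL/6J. Defining neutrophil genes were near 0 in both strains: S100a8 averaged 0.51 TPM in BALB/cJ and 0.10 TPM in C57BL/6J, Retnlg 0.38 TPM in BALB/cJ and 0.0835 TPM in C57BL/6J, and S100a9 0.33 TPM in BALB/cJ, with 0 in every C57BL/6J library. Of 7 enterocyte markers, 1 was higher and 1 lower in BALB/cJ colon. The part of these cells in the Alpl difference was not tested.

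Alppl2, the embryonic relative, had a few TPM in the small intestine. It lay below the minimum level in colon, so no test against colon is given. In ileum it had 1.92, 2.55 and 2.88 TPM in BALB/cJ mice and 0.977, 1.34 and 2.14 TPM in C57BL/6J mice, and the strain difference there was 0.53 ± 0.13 (limma adjusted p = 0.0151, or 0.52 ± 0.14 with adjusted p = 0.019 without C57BL/6J mouse 2). The median of all ileum genes was itself shifted by 0.17 toward BALB/cJ, and 17.2% of them were called higher there. In duodenum/jejunum it had 1.14, 2.08 and 3.27 TPM in BALB/cJ mice and 1.05, 1.90 and 2.41 TPM in C57BL/6J mice. In colon no library exceeded 0.267 TPM in BALB/cJ or 0.258 TPM in C57BL/6J. These levels lie far below those of its neighbour Alpi, with which 1.22% of its 31-base words are shared.

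The genes whose log2 levels ran most alike were listed for each enzyme gene by Pearson's r over the 39 libraries, which share tissue and strain. For Akp3 these were Sult6b2 (r = 0.98), Otop3 (0.98), Reg1 (0.97), Slc19a3 (0.97) and Tmprss15 (0.97). Tmprss15 encodes enteropeptidase, which activates pancreatic trypsinogen, and averaged 47.2 TPM in BALB/cJ and 35.5 TPM in C57BL/6J duodenum/jejunum. For Alpi they were Tkfc, Gata4, Creb3l3, Treh and Apoc3, each at 0.99. Gata4, a transcription factor of the upper small intestine, averaged 106 TPM in BALB/cJ and 93.0 TPM in C57BL/6J duodenum/jejunum, and Treh encodes the brush border enzyme trehalase. For Alpl the likeness was weaker and the list different, with Fcgr2b (0.84), Lyz2 (0.82), Ctsk (0.81), Igfbp7 (0.80) and Tmem176b (0.80). Lyz2 encodes the lysozyme of macrophages and averaged 308 TPM in BALB/cJ and 132 TPM in C57BL/6J colon. Over the 36 libraries without C57BL/6J mouse 2, the first 5 for Akp3 were Nadk2 (0.98), Otop3, Sult6b2, Slc19a3 and Tmprss15, so Reg1 gave way to Nadk2. For Alpi, Slc5a1 and Igsf23 took the places of Treh and Apoc3, and for Alpl, Psmg4 (0.82) and Txnl4a (0.81) those of Ctsk and Igfbp7.

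With the mean of each tissue and strain taken out, only the spread between mice was left. Akp3 then ran most like Pdx1 (r = 0.89), Otop3 (0.89), Sult6b2 (0.87), Car2 (0.85) and Scarb1 (0.84). Pdx1 encodes a transcription factor of the duodenum and pancreas, and averaged 10.8 TPM in BALB/cJ and 6.04 TPM in C57BL/6J duodenum/jejunum. Alpi ran most like Papss2 (0.86), Sectm1b (0.83), Tob1 (0.83), Proz (0.82) and Fam3c (0.82), and Alpl most like Ppic (0.66), Ndc1 (0.65), Tbcd (0.65), Aldh1a2 (0.64) and Rhoj (0.63). These lists changed more when C57BL/6J mouse 2 was left out. For Akp3 they became Cybrd1 (0.89), Ugt2b38 (0.88), Pdx1 (0.87), Otop3 (0.86) and Slc40a1 (0.86), with both Cybrd1 and Slc40a1 known from iron uptake. Cybrd1 and Pdx1 are also in the position score. For Alpi, Papss2 (0.78), Sectm1b (0.77) and Fam3c (0.76) stayed among the first 5, and for Alpl they became Ndc1 (0.68), Pdia5, Rps2, Ppp1ca and Eif3i (0.63). Akp3 and Alpi themselves had r = 0.52 in these deviations, and 0.28 without that mouse. The deviations share libraries, and no function or control is read from the likeness.

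Transcription factors that have been linked to intestinal alkaline phosphatase, partly in human cell lines, were followed between strains, and most calls were in colon. In that tissue 7 of the 11 tested factors passed the test, all 7 with less RNA in BALB/cJ, and the median of the list was -0.26. Over all colon genes the median was 0.02, with 14.5% called higher and 10.8% lower in BALB/cJ. Cdx1, a caudal-type factor, averaged 133 TPM in BALB/cJ and 174 TPM in C57BL/6J colon (-0.39 ± 0.06, limma adjusted p = 0.000234). Hnf4g, a nuclear receptor of enterocytes, averaged 18.2 TPM in BALB/cJ and 23.96 TPM in C57BL/6J colon (-0.39 ± 0.08). Klf4, a zinc finger factor, averaged 205 TPM in BALB/cJ and 258 TPM in C57BL/6J colon (-0.33 ± 0.08), and Cdx2, the other caudal-type factor, 77.4 TPM in BALB/cJ and 98.4 TPM in C57BL/6J colon (-0.34 ± 0.08). Without C57BL/6J mouse 2, 6 of 11 were lower in colon. In ileum 1 of 12, Zfp148, was called, higher in BALB/cJ at 28.5 TPM against 23.8 TPM in C57BL/6J, and 0 of 12 once libraries were rescaled. Without that mouse Cdx1 was also called in ileum, lower in BALB/cJ (-0.24, limma adjusted p = 0.0146). In duodenum/jejunum 0 of 12 were called, with or without that mouse. Of all genes, 17.2% were higher and 3.17% lower in BALB/cJ ileum, and 4.7% higher and 4.8% lower in BALB/cJ duodenum/jejunum.

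Other brush border enzymes and structural genes followed the fall of Alpi into the colon. Of 28, 26 were higher in duodenum/jejunum than in colon in BALB/cJ and 26 in C57BL/6J, and the median difference was 4.354 in BALB/cJ and 4.198 in C57BL/6J, against -0.29 and -0.28 for all genes in these strains. Of all genes, 14.5% were higher in duodenum/jejunum than in colon in BALB/cJ and 15.3% in C57BL/6J. Only 24 of the 28 reached the minimum level among colon libraries alone. The others entered this fit through small intestinal libraries, so their calls follow in part from the choice of genes tested. Between duodenum/jejunum and ileum, 10 were higher and 7 lower in BALB/cJ, beside 7.63% and 35.5% of all genes. In C57BL/6J, 8 were higher and 4 lower (10 and 5 without mouse 2), beside 5.79% and 5.54% of all genes with all mice. Between strains, 4 of 24 were higher and 5 lower in BALB/cJ colon, where 14.5% and 10.8% of all genes were. In ileum 1 of 27 was higher (0 with rescaled libraries, 2 without C57BL/6J mouse 2), beside 17.2% of all genes with all mice. In duodenum/jejunum 3 of 28 were higher, beside 4.7%. In colon, Xpnpep2, an aminopeptidase, averaged 15.5 TPM in BALB/cJ and 4.88 TPM in C57BL/6J (1.49 ± 0.13, limma adjusted p = 5.72e-07), and Naaladl1, a peptidase, 9.39 TPM in BALB/cJ and 35.9 TPM in C57BL/6J (-1.79 ± 0.25, adjusted p = 9.61e-05). The 3 called in duodenum/jejunum were Mme, a peptidase, with 668 TPM in BALB/cJ and 414 TPM in C57BL/6J, Ace, the angiotensin-converting peptidase, with 1182 TPM in BALB/cJ and 692 TPM in C57BL/6J, and Enpp3, which splits extracellular nucleotides, with 626 TPM in BALB/cJ and 380 TPM in C57BL/6J. Without C57BL/6J mouse 2 the difference was 0.59 for Mme and 0.66 for Enpp3, both still called by limma, and 0.69 for Ace, which lost its call (adjusted p = 0.0559, against 0.0498 with all mice).

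Genes that build and trim the GPI anchor, by which these phosphatases are held to the membrane, did not share the steep gradient of the enzymes. Of 28 tested, 2 were higher and 19 lower in duodenum/jejunum than in colon in BALB/cJ, and 2 higher and 18 lower in C57BL/6J. Their medians of -0.33 and -0.32 were close to the -0.29 and -0.28 of all genes, of which 49.0% and 49.4% were lower. With that shift removed by rescaling, 8 were higher and 5 lower in BALB/cJ, and 5 higher and 6 lower in C57BL/6J. Between strains, 5 were higher and 2 lower in BALB/cJ colon, 4 were higher in ileum (2 higher and 2 lower with rescaled libraries) and 1 was higher in duodenum/jejunum, of 28 in each. Of all genes, 14.5% were higher and 10.8% lower in BALB/cJ colon, 17.2% were higher in ileum and 4.7% in duodenum/jejunum, so these counts lay near the background. Without C57BL/6J mouse 2, 5 were higher and 0 lower in colon, and 7 were higher in ileum. The shares above are from all mice, and ileum calls over all genes ranged from 1948 to 4041 as single mice were left out. Pigt, part of the complex that attaches the anchor, averaged 93.1 TPM in BALB/cJ and 76.0 TPM in C57BL/6J colon (0.29 ± 0.05, limma adjusted p = 0.000652). Pgap1, which removes an acyl chain from the anchor, averaged 23.2 TPM in BALB/cJ and 13.1 TPM in C57BL/6J duodenum/jejunum (0.77 ± 0.11, limma adjusted p = 0.000263, or 0.73 ± 0.11 without C57BL/6J mouse 2).

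Among genes that handle the known substrates and products of these enzymes, single members differed between strains. Of 5 phosphate carriers tested in duodenum/jejunum, 2 were called, beside 9.5% of all genes. Slc34a2, a sodium-phosphate cotransporter of the brush border, averaged 36.2 TPM in BALB/cJ and 172 TPM in C57BL/6J duodenum/jejunum (-2.25 ± 0.33, limma adjusted p = 0.000272), and Slc20a1, a carrier of another family, averaged 50.8 TPM in BALB/cJ and 17.01 TPM in C57BL/6J there (1.51 ± 0.16, adjusted p = 6.27e-06). With C57BL/6J mouse 2 left out the differences were -2.07 for Slc34a2 and 1.52 for Slc20a1, both still called by limma. Of 9 lipopolysaccharide genes, Ly96, the partner of the receptor Tlr4, was lower in BALB/cJ in all tissues, with 5.76 TPM against 13.8 TPM in C57BL/6J duodenum/jejunum (-1.13 ± 0.16, limma adjusted p = 0.000187, or -1.09 ± 0.17 without C57BL/6J mouse 2). Tlr4 averaged 11.7 TPM in BALB/cJ and 3.62 TPM in C57BL/6J ileum (1.497 ± 0.17, limma adjusted p = 3.37e-05, or 1.36 ± 0.12 without that mouse). The other calls of this list were mixed. Aoah was lower in BALB/cJ in ileum (-0.62) and duodenum/jejunum (-0.66), whereas Lbp (0.53) and Tlr4 (0.36) were higher in BALB/cJ colon. Of all genes, 25.3% were called in colon, 20.4% in ileum and 9.5% in duodenum/jejunum. Of 11 genes of extracellular nucleotide breakdown in colon, 2 were higher and 1 lower in BALB/cJ, a share close to the 25.3% of all colon genes called, the lower one being Acpp, an acid phosphatase, with 6.35 TPM in BALB/cJ against 18.5 TPM in C57BL/6J (-1.42 ± 0.12, adjusted p = 4.09e-07). Of 5 genes of vitamin B6 and pyrophosphate handling, 1 was called in colon, Pdxk, lower in BALB/cJ, and 0 in duodenum/jejunum. In ileum 1 was called, Enpp1, higher in BALB/cJ (0 with rescaled libraries, 3 without C57BL/6J mouse 2). These counts stand beside 25.3, 20.4 and 9.5% of all genes in colon, ileum and duodenum/jejunum, shares that are from all mice.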

How the data were processed

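The unit of the deposited values, in a table for each tissue, is log2(TPM + 1). Per the submitters' processing notes, the authors used kallisto 0.44.0 and mouse build GRCm38, and no source used here names the transcript set. RNA was extracted with a column kit and ribosomal RNA was removed, per the labels' protocols. TPM keeps no read counts, so the depth is unknown and only the spread over mice gives the precision. Turned back to TPM, libraries summed to 979558 to 996230, with 14557 to 16186 entries at 1 TPM or more. Entries whose names had become numbers, 26 for each tissue, were left out, as they name no gene, and 0 columns belonged to no sample.

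The strain fit was made separately for each tissue with limma 3.58.1 (R 4.3.3) and a variance trend on log2(TPM + 1), and kept genes that reached 1 TPM in 6 or more of 13 libraries. Tissues, and strain differences between tissues, were compared in 1 fit of 6 group means over the 39 libraries, with the same minimum in 6 or more. P-values are two-sided and adjusted by Benjamini-Hochberg over all genes tested, and a gene was called at an adjusted p under 0.05. Differences are on the log2(TPM + 1) scale, with a pseudocount of 1, and understate the change of low genes such as Alpl; ratios are of mean TPM. The scripts were tested on simulated data. Akp3, Alpi and Alpl, the 26 gene lists and the tests were chosen with earlier results of these data known.

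The text names the 3 genes, Alppl2, up to 4 called members of a list per tissue by smallest adjusted p, and the 5 genes most alike by Pearson's r, among those with a mean of at least 5 TPM in a group, without predicted genes. Where a mouse number occurs in both strains it marks different animals: deviations of same-numbered libraries had a median correlation of -0.03 in colon, -0.07 in ileum and 0 in duodenum/jejunum. The mouse label joins tissues of 1 animal, with median correlations of 0.24 between duodenum/jejunum and ileum, 0.10 between duodenum/jejunum and colon and 0.14 between ileum and colon. Alternatives were a pseudocount of 0.1, no minimum level, rescaling by median ratios (RLE), a mouse or replicate block and leaving out each mouse. Coordinates are from the GENCODE annotation of GRCm38, and promoter sequence from RefSeq (GRCm38.p6), where all 4 genes matched by symbol.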

Additional observations from a re-analysis of the deposited data

Results flagged for a closer look

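Libraries that stood apart were sought by the gap of the highest or lowest value to its nearest neighbour as a share of the group's range, in 40 groups of values, with critical values of 0.625 for 6 libraries and 0.568 for 7. Of these, 11 had such a library, and chance would give about 1 in 20 if the groups were independent. They are not, since the Akp3 share and the sum are made from the Akp3 and Alpi levels. The count therefore cannot be set against chance. For Akp3 levels the library apart was BALB/cJ mouse 2 in ileum (0.798) and in colon (0.786) and C57BL/6J mouse 2 in ileum (0.879). For the Akp3 share of the Akp3 and Alpi sum it was BALB/cJ mouse 2 in ileum (0.981) and colon (0.8) and C57BL/6J mouse 2 in ileum (0.968). C57BL/6J mouse 2 also stood apart in the sum itself in ileum (0.575) and in the position score, as the lowest in duodenum/jejunum (0.627) and the highest in ileum (0.814). BALB/cJ mouse 2 had the lowest Alpi in ileum (0.681), and C57BL/6J mouse 6 the lowest Alppl2 in duodenum/jejunum (0.664). The ileum library of BALB/cJ mouse 2 had 4884 TPM of Fabp6 and a position score of -5.40, in the range of ileum, unlike C57BL/6J mouse 2. Its 0.70 TPM of Tmprss15 was the highest of the BALB/cJ ileum libraries, whose median was 0.0330 TPM. The colon library of BALB/cJ mouse 2 also had the most Tmprss15 of its group, 0.25 TPM beside a median of 0.0417 TPM. The part of such proximal RNA in the Akp3 values of BALB/cJ mouse 2 was not tested.

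The strain difference of Alpl differed between duodenum/jejunum and colon by -1.05 log2 units (limma adjusted p = 0.0139).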

How the results depend on the processing

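Of 666 recomputed values for 35 results on Akp3, Alpi and Alpl, 616 kept their direction and side of the threshold, 23 were weaker, 3 stronger and 24 reversed, with 0 reversed among the 17 called results. The cause of no change was tested, apart from fits that hold fewer samples by construction.

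The Alpl strain difference in ileum lost its call with a pseudocount of 0.1 (0.83), without a minimum level (0.59), with RLE scaling (0.47) and with the replicate block (0.61), at limma adjusted p of 0.0519, 0.0819, 0.129 and 0.127. The Alpl difference between ileum and colon in BALB/cJ lost it with a pseudocount of 0.1 (-0.66), without a minimum (-0.52) and with RLE (-0.41). With a pseudocount of 0.1, Akp3 in BALB/cJ gained a call between ileum and colon (2.26), its uncalled strain differences changed sign in ileum (0.0702) and between duodenum/jejunum and colon (-0.10), and its r with the position score in BALB/cJ duodenum/jejunum was 0.94 and no longer called. Alppl2 between duodenum/jejunum and ileum in BALB/cJ changed sign with RLE (0.0042).

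A fit of 2 tissues with mice as a replicate block was added after the data had been seen. It called Akp3 between ileum and colon in BALB/cJ (1.49, with or without C57BL/6J mouse 2) and lost Alpi between duodenum/jejunum and ileum in C57BL/6J (1.19). Akp3 passed the minimum level there through its ileum libraries, so its call follows in part from the choice of genes tested. Genes called between these tissues in C57BL/6J numbered 56 in that fit and 3716 without mouse 2, against 1940. The planned mouse block changed no call between tissues for the 3 genes. Numbers shared between strains pair no animals, and the block on them gave 929 calls in ileum, against 3169.

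RLE scaling gave 942 higher and 882 lower strain calls in ileum, 1824 in all, against 2677 and 492. For duodenum/jejunum minus ileum it gave 2925 higher and 2813 lower in BALB/cJ, against 1306 and 6074, and 1160 and 815 in C57BL/6J, against 992 and 948. For duodenum/jejunum minus colon it gave 4933 and 5040 in BALB/cJ, against 2486 and 8392, and 4762 and 4865 in C57BL/6J, against 2619 and 8452. For ileum minus colon it gave 3738 and 3950 in BALB/cJ, against 2713 and 5190, and 4595 and 4891 in C57BL/6J, against 2596 and 7963. The strain difference changed between ileum and colon in 531 genes (199 higher), against 698 (449 higher). Between duodenum/jejunum and ileum it changed in 120 genes with RLE (70 higher), 391 without a minimum and 1302 with the block, against 672 (44 higher).

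Leaving out each mouse in turn gave strain differences in ileum of -0.44 to 0.69 for Akp3, -0.16 to 0.24 for Alpi and 0.48 to 0.72 for Alpl, and of -0.0693 to 0.16 for Alpl in duodenum/jejunum. Ileum minus colon ranged from -0.66 to -0.40 for Alpl in BALB/cJ, from -0.0892 to 0.16 for Alpl in C57BL/6J and from 1.21 to 2.09 for Akp3 in C57BL/6J. The strain difference in duodenum/jejunum minus that in colon ranged from -0.28 to 0.90 for Akp3, -0.0212 to 0.16 for Alpi and -1.16 to -0.94 for Alpl. For ileum minus colon it ranged from -0.60 to 0.29 for Akp3 and -0.36 to 0.0421 for Alpi. The r of Akp3 with the position score in C57BL/6J duodenum/jejunum was 0.92 without mouse 2. Calls numbered 1948 to 4041 between strains in ileum, 1132 to 3510 for duodenum/jejunum minus ileum in C57BL/6J and 188 to 1017 for the change of the strain difference between these tissues. Read depth is not given by TPM, so levels under about 1 TPM, as of Akp3 in colon, carry an unknown counting error.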

Other observations

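Genes of vitamin B6 and pyrophosphate handling were measured along the gut as well, and 3 of the 5 tested were higher in duodenum/jejunum than in ileum in both strains, beside 7.63% of all genes in BALB/cJ and 5.79% in C57BL/6J. Phospho1, a phosphatase known with Alpl from bone mineralisation, averaged 77.2 ± 33.5 TPM in duodenum/jejunum and 10.2 ± 3.63 TPM in ileum of BALB/cJ (SD, n = 6 each), a log2 difference of 2.77 ± 0.47 (limma adjusted p = 1.8e-05). In C57BL/6J it averaged 40.6 ± 16.6 TPM in duodenum/jejunum and 16.6 ± 23.5 TPM in ileum (SD, n = 7 each), a difference of 1.76 ± 0.43 (limma adjusted p = 0.00495). Without C57BL/6J mouse 2 that difference in Phospho1 was 2.42 ± 0.37 (limma adjusted p = 4.82e-06). Pdxk, the kinase that makes pyridoxal phosphate, differed by 0.67 ± 0.16 in BALB/cJ and 0.67 ± 0.15 in C57BL/6J (0.91 ± 0.12 without mouse 2), and Ank, known for pyrophosphate export, by 0.66 ± 0.16 in BALB/cJ and 0.53 ± 0.15 in C57BL/6J (0.61 ± 0.16 without mouse 2). Enpp1, which makes pyrophosphate, was lower in duodenum/jejunum than in colon, by -0.75 ± 0.09 in BALB/cJ and -0.82 ± 0.08 in C57BL/6J.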
